A study of Mus musculus with 10 samples.

Results

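A set of 9 genes better known from the stomach and gut than from the lung were followed through 10 single-cell RNA libraries of mouse alveolar cells. They are Hnf4a, Cdx2, Ctse, Gkn2, Tff1, Tff2, Phgr1, Vil1 and Lgals4, matched by symbol among the 31053 genes of the files (9 of 31053, all found). They were selected on their RNA levels in mutant cells in earlier results of these data. Their levels in mutant cells are therefore a description, given without a test. Tests were kept for wildtype cells and for 89 other gastric and intestinal genes.

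All mice carried Sftpc-CreERT2, which is active in alveolar type 2 (AT2) cells, the surfactant-producing stem cells of the alveolus, and all received 3 doses of 0.2 mg tamoxifen per g body weight. In Sftpc-CreERT2; R26R-Confetti mice both the RFP and the YFP cells are wildtype (1 library each, taken at 2 weeks by the methods, while the labels give no time). In Sftpc-CreERT2; Red2Kras mice the RFP cells are the mutant cells and the YFP cells are their wildtype neighbours, with 2 libraries of each colour at 4 days (4d) and at 2 weeks (2w). By the methods, tamoxifen had not fully washed out at 4 days. The methods give adult 8-week-old mice of either sex, EpCAM+ distal lung cells sorted by colour, and at least 2 lungs pooled per library. Replicates are thus pools, and p-values measure the spread between libraries. The methods list Confetti as 1 sample and place library preparation on 2 days, so the 2 Confetti libraries may share lungs, and the labels do not tie a library to a day. The mouse line and the absence of any mutant neighbour cannot be told apart in a comparison with Confetti.

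The files hold 42012 barcodes. Quality filters kept 32698, and 29579 of those fell in alveolar clusters, with 1008 to 4223 cells per library. The median depth of an alveolar cell was 3251.5 to 6707.5 UMIs (unique molecular identifiers, each standing for 1 captured RNA molecule) outside the 2w RFP libraries and 15802 and 13383 UMIs in them. Many shares of cells are therefore given also after thinning every cell to 2000 UMIs, and shares without such a value are before thinning. The 7 AT2 markers were all detected in every library, with summed levels of 75814 to 224731 CPM (each gene's UMIs as parts of 1e6 of the library's UMIs). The 7 immune markers summed to 10.2 to 23.1 CPM in the alveolar cells. The 5 airway secretory markers summed to 81.4 to 967 CPM in Red2Kras libraries and 2459 and 2472 CPM in Confetti, and their part in the results was not tested. The replicates of 1 group differed in make-up. DATP-like cells, named from Krt8, Cldn4, Itga2, Ndrg1, Sfn, Clu and Sprr1a, were 1.18% and 36.2% of the 2 libraries of 4d RFP and 21.5% and 40.1% of those of 2w RFP. In 4d YFP, AT2-like cells were 94.7% of replicate 1 and 1.40% of replicate 2. Primed AT2-like cells, named from Lcn2, Lrg1, Il33, Retnla, Ptgs1 and Cd302, were 2.25% and 86.9% there. The part of make-up in levels and tests was not tested.

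The lung and the stomach arise from neighbouring stretches of the foregut. Nkx2-1 maintains lung identity, and its loss in lung epithelium is known to release a gastric programme that depends on Foxa1, Foxa2 and Hnf4a. Hnf4a is a nuclear receptor of liver, gut and stomach epithelium, and Cdx2 is the transcription factor that specifies intestine. Ctse encodes cathepsin E, an aspartic protease of gastric surface cells. Gkn2 is a gastrokine and Tff1 a trefoil peptide, both secreted by gastric pit cells, while the related Tff2 comes from mucous neck cells. Vil1 encodes villin, an actin-bundling protein of the brush border. Lgals4 encodes galectin-4, a lectin of gut epithelium, and Phgr1 is a small protein gene of intestinal epithelium.

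Of the 2 transcription factors among these genes, Hnf4a was found in both 2w RFP libraries and Cdx2 had a single UMI. Levels below are UMIs summed over the alveolar cells of a library, scaled by edgeR's TMM factors to CPM. In such sums fewer cells of a type and less RNA per cell cannot be told apart. Hnf4a (GRCm38 chr2:163506808-163572910, plus strand) had 4.20 and 4.51 CPM in the 2 libraries of 2w RFP, 0.264 and 2.57 in 2w YFP, 0.0505 and 1.51 in 4d RFP, and 0 in both 4d YFP and both Confetti libraries. Both 2w RFP libraries lay above all 8 others, and the 2w RFP mean was at least 46.3-fold that of Confetti, taking 3 UMIs over both Confetti libraries as the floor. An antisense gene, Hnf4aos, overlaps the locus. Cdx2 (chr5:147300805-147307270, minus strand) had 1 UMI in all 10 libraries, in 2w RFP replicate 1. Its 0 of 2771 cells in replicate 2 allow a share of cells with a Cdx2 UMI of up to 0.108%, which sets no limit on cells expressing the gene.

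Ctse (chr1:131638306-131675505, plus strand) was found in DATP-like and few other cells, as detailed further on. It had 32.8 and 62.2 CPM in 2w RFP, 1.32 and 12.5 in 2w YFP, 0.404 and 10.1 in 4d RFP, 0.470 and 0.525 in 4d YFP, and no UMI in Confetti. The 2w RFP mean was at least 505-fold Confetti and 6.87-fold 2w YFP (24.9-fold and 4.97-fold in replicates 1 and 2). The 2w YFP and 4d RFP values overlapped, so those groups have no order. Ctse was found in 10.8% of 2w RFP cells of replicate 1 (exact 95% interval 9.90 to 11.8) and 13.5% of replicate 2 (12.3 to 14.9), against 4.58% and 6.90% after thinning. The top 10% of positive cells, ranked by Ctse, held 35.6% and 35.4% of its UMIs.

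Gkn2 (chr6:87373357-87379497, plus strand) had 69.5 and 84.6 CPM in 2w RFP, 3.74 and 26.6 in 2w YFP, 0.960 and 23.3 in 4d RFP, 0 and 0.875 in 4d YFP, and 0.483 and 0.131 in Confetti RFP and YFP. Both 2w RFP libraries again lay above the rest, at 245-fold the Confetti mean and 5.07-fold 2w YFP (18.6-fold and 3.18-fold in replicates 1 and 2). The Confetti mean rests on 10 UMIs, 8 in Confetti RFP and 2 in Confetti YFP, and 6 of the 8 came from 1 cell, so the 245-fold value is imprecise. The top 10% of cells by Gkn2 held 65.1% and 63.8% of its UMIs, so the sum rested on fewer cells than that of Ctse. Its neighbour Gkn3 lies 3.8 kb away, and Gkn1, 22.4 kb away, is a gene of the same gastric pit family. Neither had the pattern of Gkn2. Gkn3 had 6.83 and 0.711 CPM in 2w RFP against 18.8 and 19.5 in Confetti RFP and YFP. Gkn1 had a single UMI, in 2w RFP replicate 2.

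Tff1 (chr17:31161395-31165277, minus strand) had 52.8 and 26.9 CPM in 2w RFP, 0.905 and 47.9 in 2w YFP, 1.01 and 9.05 in 4d RFP, and 0 in 4d YFP and Confetti. The groups 2w RFP and 2w YFP overlapped. In 2w YFP replicate 2 a single cell held 219 of 299 Tff1 UMIs. The gene was highly concentrated in RFP cells too. Only 62 of 4048 and 59 of 2771 cells of 2w RFP had a UMI, 1 cell of replicate 1 held 1152 of 4062 UMIs, and the top 10% of positive cells, 6 cells, held 88.4% there. In replicate 2 the top 10% held 45.9%. The 1152 Tff1 UMIs were 2.58% of that cell's 44686 UMIs, and the doublet score did not mark the cell. Its neighbour Tff2 (chr17:31141049-31144282, minus strand), 17.1 kb away, was scarcely seen: 4 and 2 UMIs in 2w RFP, and 0.0520 and 0.0490 CPM, within the range of the other libraries.

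**Figure D1:**
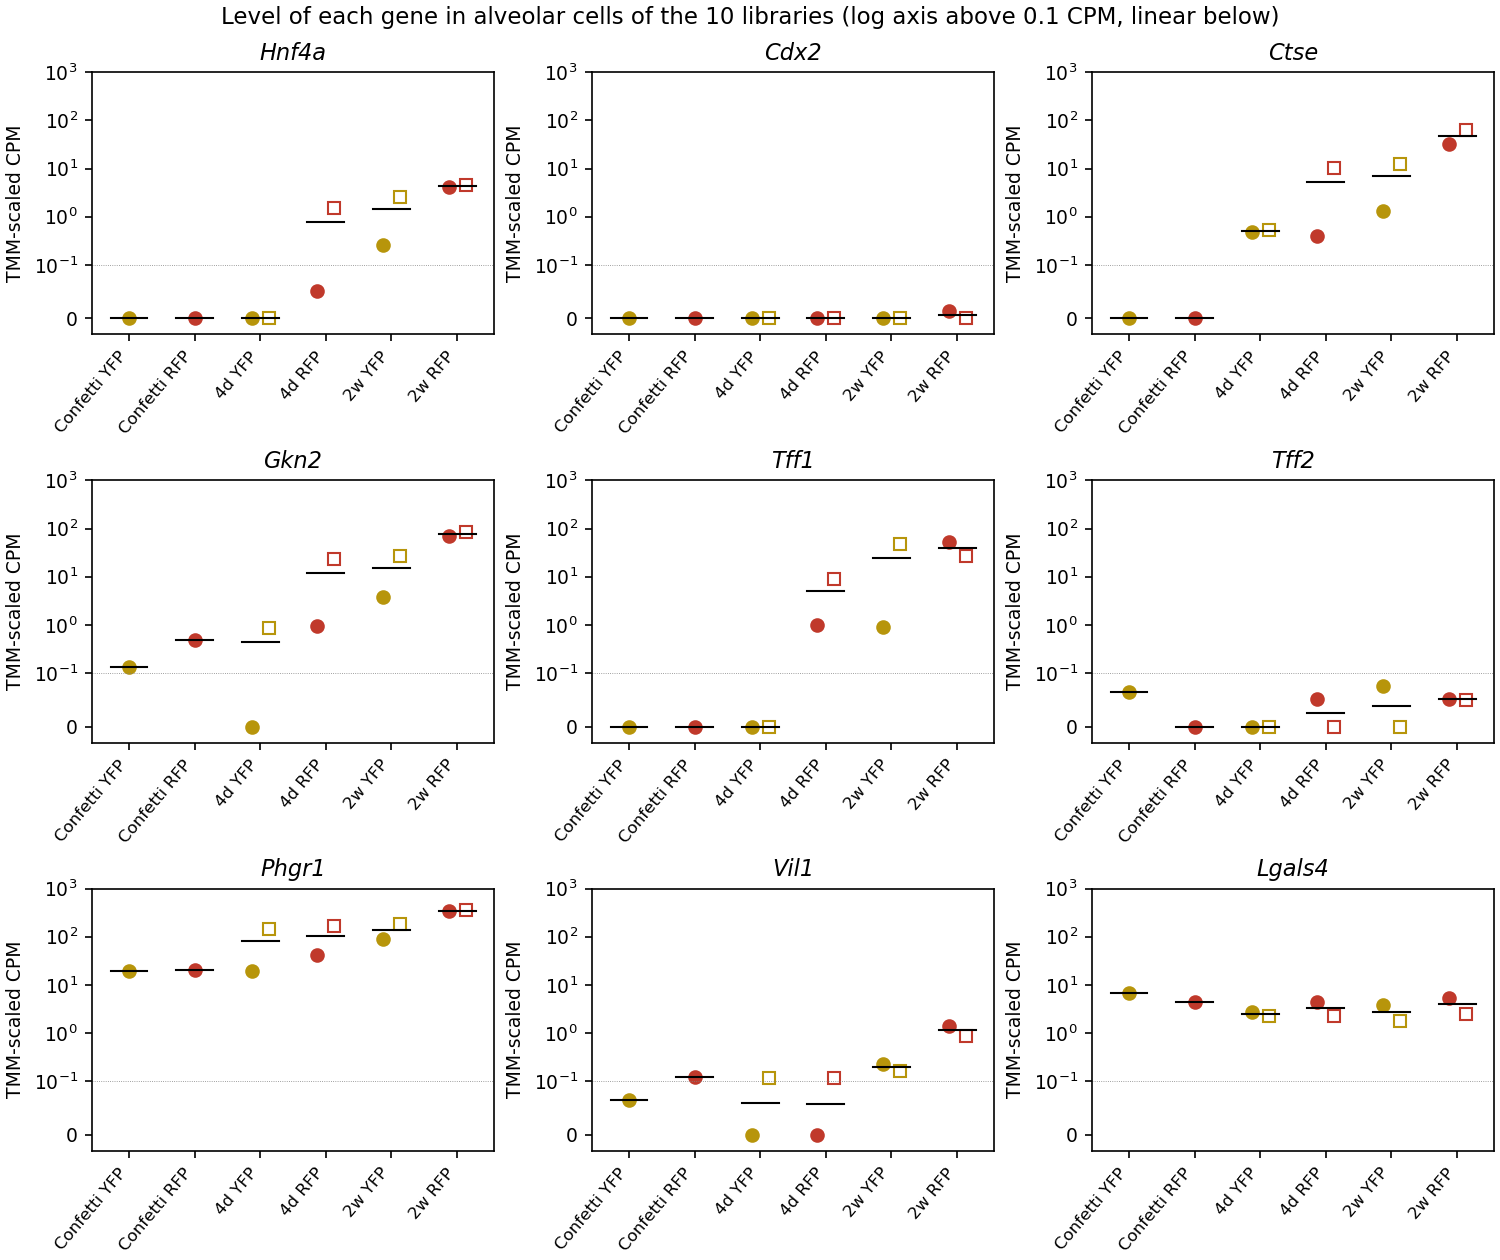
TMM-scaled CPM of each gene (vertical axis, logarithmic above 0.1 CPM) in the 6 groups, with filled circles for replicate 1, open squares for replicate 2 and a line at the group mean. The 2 libraries of 2w RFP lie above the 8 others for Hnf4a, Ctse, Gkn2, Phgr1 and Vil1, and overlap with them for Tff1, Tff2 and Lgals4, while Cdx2 has 1 UMI.

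The intestinal genes did not share 1 pattern. Phgr1 (chr2:118772769-118778165, plus strand) had 340.7 and 351.8 CPM in 2w RFP, 88.1 and 187.1 in 2w YFP, 41.9 and 166.9 in 4d RFP, 19.6 and 145.3 in 4d YFP, and 20.1 and 19.7 in Confetti. It was found in wildtype alveolar cells as well, in 6.10% and 5.42% of Confetti cells and 52.3% and 50.7% of 2w RFP cells (2.89%, 3.45%, 24.5% and 25.1% after thinning). In Confetti immune cells it was in 2.11% (3 of 142, interval 0.438 to 6.05). That overlaps the interval of Confetti alveolar cells, 5.24 to 6.29, and whether their UMIs were background was not tested. Vil1 (chr1:74409376-74435559, plus strand, overlapping Usp37 on the other strand) had 1.39 and 0.882 CPM in 2w RFP, and 0 to 0.226 elsewhere. With 3 UMIs in Confetti its ratio of pooled levels was 12.9 (95% counting interval 4.33 to 63.3). Lgals4 (chr7:28833854-28841708, plus strand) had 5.45 and 2.50 CPM in 2w RFP, and its highest value, 6.80, in Confetti YFP. Its 2w RFP mean was 0.720-fold Confetti, so the gut-like label holds for the gene's known tissue and not for its level here. A larger share of cells had Lgals4 in 2w RFP, 8.08% and 3.25% against 1.09% to 2.61% elsewhere, but after thinning the shares were 1.06% and 0.289% against 0.140% to 1.42%.

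The same genes were looked for in the 874 immune cells sorted along with 2w RFP, at a median of 11988 UMIs. Ctse was found in 3.55% of them, Phgr1 in 6.86%, Lgals4 in 1.95%, Gkn2 in 0.915%, Tff1 in 0.343%, Hnf4a in 0.229% and Vil1 in 0.114%. The alveolar shares were higher for each of these genes. Tff2 went the other way, in 0.343% of immune cells (3 of 874) and 0.0587% of alveolar cells (4 of 6819). Other groups were set against their own immune cells. In 2w YFP, Ctse was in 1.03% of 874 immune and 0.554% of 5231 alveolar cells, and Tff1 in 0.572% and 0.134%. In 4d YFP, Ctse was in 3.12% of 224 immune and 0.281% of 4627 alveolar cells, and in 4d RFP in 2.52% of 317 and 1.09% of 5148. At like depth in 4d YFP (medians of 5774.5 and 6090 UMIs) the intervals of the immune and alveolar shares of Ctse did not overlap (1.27 to 6.33 and 0.150 to 0.480), so immune cells are no blank for Ctse. Whether these UMIs were free RNA or RNA of the immune cells was not tested. Shares in single states are given further on.

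RefSeq promoters (GRCm38.p6) were at hand for 6 of the genes, and 3 are shown, those of genes above all other libraries in 2w RFP whose window held a match. Vil1 was also above the others and its window held none. Each is the 250 bases before the start, with letters in capitals where they match, on either strand, CAAAGNNCA for HNF4, TGTTTNC for FOXA factors or GATAAG for the GATA family. They are chr2:118772524-118772773, chr6:87373115-87373364 and the first of 2 starts of Hnf4a at chr2:163506607-163506856, all on the plus strand.
Phgr1: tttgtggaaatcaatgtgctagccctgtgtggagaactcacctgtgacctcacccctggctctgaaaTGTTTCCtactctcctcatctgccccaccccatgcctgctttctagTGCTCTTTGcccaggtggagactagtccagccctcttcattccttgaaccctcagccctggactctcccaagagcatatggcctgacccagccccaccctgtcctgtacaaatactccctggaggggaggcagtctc
Gkn2: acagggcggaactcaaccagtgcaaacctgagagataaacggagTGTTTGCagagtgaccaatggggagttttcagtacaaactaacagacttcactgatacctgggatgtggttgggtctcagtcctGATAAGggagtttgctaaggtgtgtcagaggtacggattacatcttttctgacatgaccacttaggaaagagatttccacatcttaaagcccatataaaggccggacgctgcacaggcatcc
Hnf4a: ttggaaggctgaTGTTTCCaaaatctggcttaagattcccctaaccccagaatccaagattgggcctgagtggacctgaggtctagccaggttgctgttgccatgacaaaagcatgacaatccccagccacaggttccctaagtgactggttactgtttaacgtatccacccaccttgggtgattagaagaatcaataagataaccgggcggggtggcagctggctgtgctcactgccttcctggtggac
CAAAGNNCA was in 1 of the 7 promoters searched, that of Phgr1, and in 5.49% of all 32851 promoters of this length. TGTTTNC was in those of Phgr1, Gkn2, Hnf4a and Cdx2 and in 17.8% of all. GATAAG was in that of Gkn2 and in 6.55% of all. TTTATNG for CDX factors and CAAGTG for NKX2 factors, in 9.81% and 11.6% of all, were in none of the 7. No match in these windows overlapped another. These are matches of letters in 1 window and no evidence of binding.

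Within mutant cells the UMIs of Ctse and Tff1 were almost confined to DATP-like cells, while Phgr1 was spread over the states. The states come from clusters made without these 9 genes and without the wider gastric and intestinal list. Some primed AT2-like clusters were led by heat-shock genes such as Hspa1b and Dnajb1, and 1 AT2-like cluster by the stress genes Nfkbia, Atf3 and Fosb. Of the DATP-like cells in 2w RFP, 45.7% and 33.0% had Ctse, against at most 2.13% of any other state, and these cells held 98.3% and 99.6% of its UMIs. Tff1 was in 5.29% and 5.22% of DATP-like cells, with 99.3% and 99.9% of its UMIs. By cells it was less confined in replicate 1, where 46 of 62 cells with Tff1 were DATP-like, against 58 of 59 in replicate 2. Hnf4a was in 24.5% and 10.8%, with 93.2% and 84.2% of its UMIs. After thinning, the DATP-like shares were 20.7% and 17.1% for Ctse, 2.19% and 2.97% for Tff1, and 2.30% and 1.53% for Hnf4a.

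Gkn2 was shared between states, and differently in the 2 libraries. DATP-like cells held 83.3% of its UMIs in replicate 1 and 55.8% in replicate 2, and Cd177 mixed-like cells, named from Cd177, Cd38, Dlk1, Golm1, Prdx4 and Pdpn, held 4.14% and 40.9%. The latter state was 2.92% of replicate 1 and 52.3% of replicate 2. Vil1 had 9.89% and 1.80% positive DATP-like cells, with 91.6% and 72.2% of its UMIs. Phgr1 was found in 44.4% and 34.1% of DATP-like cells, 56.2% and 71.4% of primed AT2-like, 62.7% and 81.6% of cycling and 57.6% and 61.2% of Cd177 mixed-like cells. AT2-like cells had the lowest Phgr1 shares, 19.5% and 11.1%. In replicate 2 the AT2-like, primed AT2-like and cycling shares rest on 36, 77 and 98 cells. These Phgr1 shares are before thinning, and states differed in depth. In replicate 1, AT2-like cells with and without Phgr1 had medians of 13090 and 10706 UMIs, against 22334 and 15949.5 in cycling cells. By CPM, DATP-like cells were the highest state in both libraries for 6 of the 7 genes with at least 20 positive cells, the exception being Phgr1. By share of cells they were the highest for 3, namely Hnf4a, Ctse and Tff1.

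**Figure D2:**
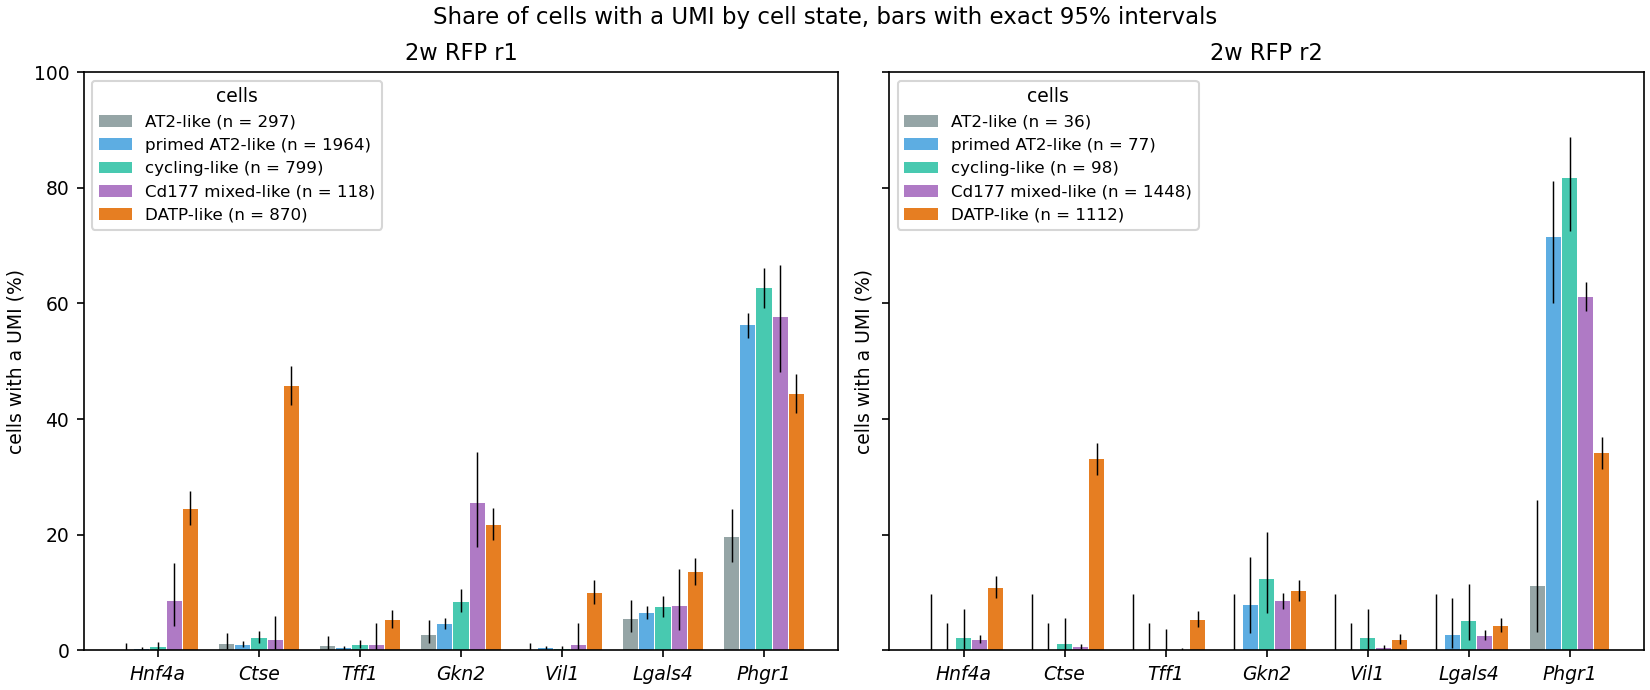
Share of cells with a UMI (vertical axis, percent) for 7 genes in 5 cell states of each 2w RFP library, as bars with exact 95% binomial intervals that cover counting error only. Ctse reaches 45.7% and 33.0% in DATP-like cells, while Phgr1 has its lowest shares, 19.5% and 11.1%, in AT2-like cells (297 and 36 cells). All shares are before thinning.

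The few DATP-like cells of the wildtype neighbours also had Ctse, Gkn2, Hnf4a and Tff1. There were 29 in 2w YFP replicate 1 and 28 in replicate 2, that is 0.69% and 2.78% of the alveolar cells. Ctse was found in 37.9% and 39.3% of them (intervals 20.7 to 57.7 and 21.5 to 59.4), Gkn2 in 20.7% and 21.4%, Hnf4a in 17.2% and 17.9%, and Tff1 in 10.3% and 14.3%, the last from 3 and 4 cells. Vil1 was in 1 cell of each. These shares are before thinning, and their difference from the DATP-like cells of 2w RFP was not tested. In all, 36 and 25 YFP cells had at least 1 of Hnf4a, Ctse, Gkn2, Tff1 and Vil1, and 18 and 21 of these were DATP-like or Cd177 mixed-like. None shared a barcode with a cell of an RFP library. Whether they were YFP cells or missorted RFP cells was not tested. In 4d RFP replicate 2, 9.27% of 518 DATP-like cells had Ctse before thinning. Alveolar cells of that library had a median of 5159 UMIs, against 15802 and 13383 in 2w RFP, so time and depth cannot be told apart here.

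In single mutant cells these genes were mostly detected together more often than their separate shares give, with 1 pair on opposite sides of an odds ratio of 1 in the 2 libraries. Of the 21 pairs of 7 genes, 19 had an odds ratio above 1 in both 2w RFP libraries. For Hnf4a and Ctse the ratio was 18.8 in replicate 1 and 6.82 in replicate 2, and 143 of 233 and 70 of 148 cells with Hnf4a also had Ctse. Hnf4a and Tff1 had ratios of 10.7 and 6.73, and Ctse and Vil1 16.1 and 10.1. Ctse and Gkn2, by contrast, had 4.09 in replicate 1 and 0.446 in replicate 2, where only 17 cells had both. Ctse and Phgr1 had 0.819 and 0.438. The DATP-like cells alone showed part of this. There Ctse was in 66.2% and 56.7% of cells with Hnf4a and in 39.1% and 30.1% of cells without. Tff1 was in 5.28% of DATP-like cells with Ctse and 5.30% of those without in replicate 1, and in 11.4% and 2.15% in replicate 2. Cells with Hnf4a were also deeper, with medians of 23642 and 17314 UMIs against 15660 and 11444. After thinning all cells, Hnf4a and Ctse had 5.44 and 3.51, each from 4 cells with both, and Ctse and Gkn2 4.28 and 0.435. Hnf4a and Tff1 then had 3 cells with both in replicate 1 and 0 in replicate 2, and Ctse and Vil1 had 3 and 2.

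Counting Hnf4a, Ctse, Gkn2, Tff1 and Vil1, 20.03% and 24.3% of 2w RFP cells had at least 1 of the 5, 7.04% and 5.77% at least 2, and 93 and 25 cells at least 3. All 5 were found in 2 cells and 1 cell. No Confetti cell, of 3804 and 3950, had 2 of them. After thinning, 0.964% and 0.939% of 2w RFP cells had at least 2.

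**Figure D3:**
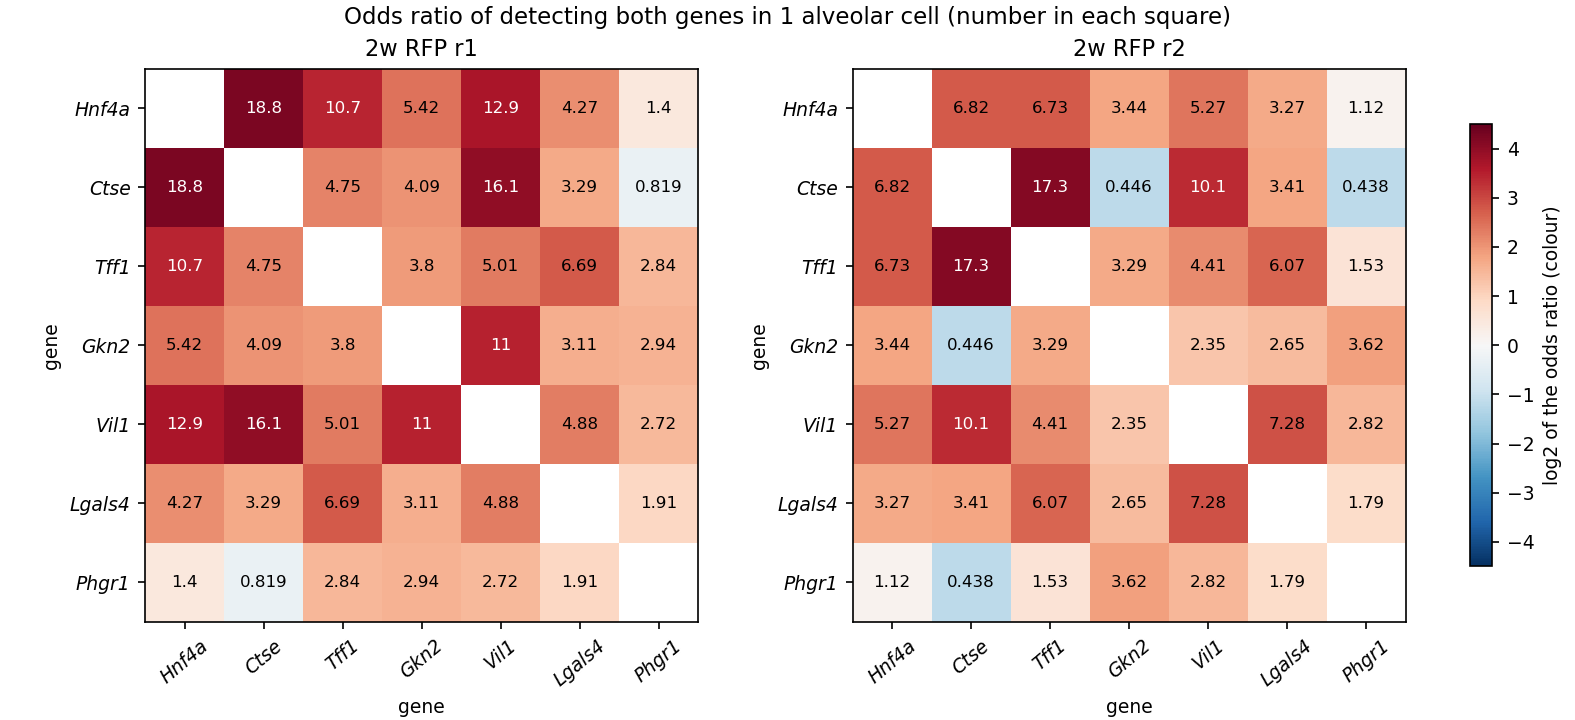
Odds ratio of finding both genes of a pair in 1 alveolar cell, as the number in each square and as colour (log2), for the 2 libraries of 2w RFP. Hnf4a with Ctse reads 18.8 and 6.82, and Ctse with Gkn2 changes from 4.09 to 0.446.

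Mutant cells with Ctse or Hnf4a had lower levels of Nkx2-1 and Sftpc, over all states, than mutant cells without. Nkx2-1 was detected in 71.1% and 71.7% of cells with Ctse and in 88.5% and 85.6% of cells without, and its CPM in the former was 0.49 and 0.69 of that in the latter. For Sftpc, the surfactant protein C gene, the same ratio was 0.12 and 0.083. Immune cells of the same libraries served as a comparison. After thinning, Nkx2-1 was found in 17.1% and 24.0% of cells with Ctse and in 4.00% and 1.52% of immune cells. Sftpc had 9184 and 6764 CPM in cells with Ctse and 18300 and 4455 CPM in immune cells, so its remaining level in cells with Ctse cannot be told from background. Cells with Hnf4a had 0.54 and 0.60 of the Nkx2-1 and 0.11 and 0.33 of the Sftpc of cells without. Krt8, a keratin of DATP-like cells, was 2.92 and 2.35 times as high with Ctse, but 1.26 and 1.08 times among DATP-like cells alone. Foxa2 hardly differed, at 0.96 and 0.90.

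Among DATP-like cells alone, Nkx2-1 in cells with Ctse was 1.01 and 0.72 of that in cells without, and Sftpc 0.43 and 0.24. With Hnf4a these ratios were 1.00 and 0.63 for Nkx2-1, and 0.76 and 0.74 for Sftpc. In replicate 2 the Nkx2-1 ratios were thus close to those over all states, while in replicate 1 they were near 1. With Gkn2 the direction of Sftpc was the other way within the state, 2.12 and 1.71, while over all states it was 0.45 and 0.67. In replicate 1 all these Sftpc levels within the state, 3627 to 10039 CPM, lay below the 18300 CPM of immune cells. The replicate 1 ratios of Sftpc within the state thus cannot be told from background. In the other states compared Sftpc was lower with Gkn2, at 0.83 and 0.64 in Cd177 mixed-like cells and, in replicate 1, 0.67 in primed AT2-like and 0.61 in cycling cells. Nkx2-1 with Gkn2 was 1.65 and 0.72 within the state. Cells with Phgr1 had 0.83 and 1.16 of the Sftpc of cells without, over all states.

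**Figure D4:**
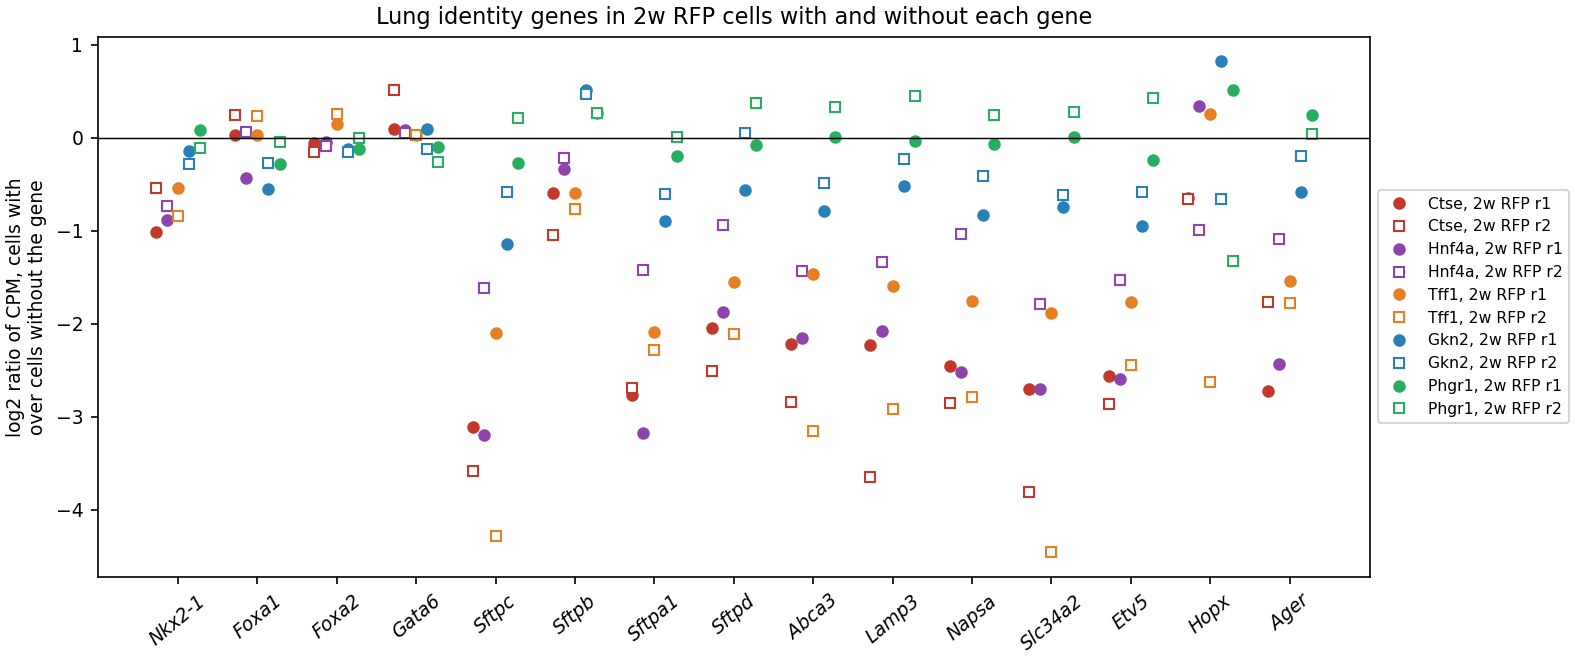
Log2 ratio of CPM between 2w RFP cells with and without each of 5 genes (vertical axis) for 15 lung identity genes, with filled circles for replicate 1 and open squares for replicate 2. Points for Ctse, Hnf4a and Tff1 lie below 0 for the surfactant genes, and points for Phgr1 lie near 0 for Sftpc (ratios 0.83 and 1.16).

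The genes most like each member were found by Pearson r across cells within each 2w RFP library, which share depth and state, so no p is given. For Ctse they were Cpe (mean r 0.61 over both libraries), Ctsl, Clu, Anxa10 and Cdkn2a. For Gkn2 they were Gzme (0.44), Vcam1, Itih2, Rbp4 and Spp1. For Hnf4a they were Itga2 (0.32), Clu, Prss22, Spp1 and F3, and for Phgr1 Prdx4 (0.34), Sec61b, Sec61g, Ssr2 and Pglyrp1, several of which serve the secretory pathway. Tff1 reached 0.24 with Cmbl, followed by Procr, Anxa10, Gcnt3 and Fxyd3. Over the 10 libraries Hnf4a was most like Itih2 (r 0.99), then Ctse and Psapl1. Hnf4a and Ctse were both chosen on their levels in mutant cells, so their likeness over libraries is a description only. Likeness of Vil1 (0.22 with Spp1) and Lgals4 (0.13 with Synpr) was weak.

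In wildtype libraries, where these genes were not chosen, none passed the test. Vil1 passed the low-count filter only through RFP libraries, and Hnf4a, Ctse and Tff1 had no UMI in Confetti, so a count of 0 calls says little of them. In edgeR's quasi-likelihood test on summed UMIs of 13773 genes, 0 of the 7 testable members (all but Cdx2 and Tff2) were called in 2w YFP against Confetti at a Benjamini-Hochberg adjusted p below 0.05, beside 0.0218% of all genes tested (0.0145% higher). There 5 had an unadjusted p below 0.05, beside 5.66% of all genes: Ctse, Tff1, Gkn2, Phgr1 and Hnf4a (adjusted p = 0.764 for each). DESeq2 called 2 of them, Ctse and Tff1, beside 0.712% of all genes. For Ctse, Tff1 and Hnf4a, with no UMI in Confetti, these p-values and calls are a description and no test. Gkn2 was also under the low-count filter's limit in both Confetti libraries. For Phgr1 the edgeR log2 fold change was 2.78 ± 0.95 (SE). In 4d YFP against Confetti, Hnf4a and Tff1 had no UMI in any of the 4 libraries. None of the members was called there by edgeR (0.0290% of all genes called, 0.0145% higher) or DESeq2 (0.0871% of all), and 0 had an unadjusted p below 0.05 (1.84% of all). In 2w YFP against 4d YFP edgeR called none (0.00% of all genes) and DESeq2 0 (0.109% of all), while 4 members had an unadjusted p below 0.05 (1.58% of all). Among these, Hnf4a and Tff1 had no UMI in 4d YFP, so their p-values are a description.

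The other gastric and intestinal genes moved in both directions in 2w RFP cells against Confetti. Of 89 listed genes, 43 could be tested by edgeR. Of these, 8 were called higher and 2 lower, that is 10 of 43 beside 5.39% of all 13773 genes (3.45% higher). Of the 8, Onecut2, Gpa33, Krt20 and Vsig1 were under the low-count filter's limit of 0.568 CPM (before TMM scaling) in both Confetti libraries and entered the test through Red2Kras libraries, Vsig1 through 2w RFP alone. The calls of these 4 and the share are a description and no test of the list. The calls rested on single libraries: 0 were made without either Confetti library, 1 without 2w RFP replicate 2, and 0 in sums over all barcodes, against 16 without either 4d RFP library. The shares of all genes called in those other fits are not given here. In the main fit the median log2 fold change was 0.58 over the list and 0.03 over all genes tested. The list was drawn up with earlier results of these data known.

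The transcription factors Onecut2 and Foxa3 were called higher. Onecut2, of liver and gut, had 17.8 and 9.56 CPM in 2w RFP and no UMI in Confetti, which is at least 145-fold and is given as a description. Foxa3 had 6.63 and 9.24 CPM against 0.724 and 0.785, a log2 fold change of 3.39 ± 0.71 (adjusted p = 0.0440). Among 6 gastric surface genes tested 1 was called higher, Vsig1, an adhesion protein of gastric epithelium, with 3.19 and 2.84 CPM against 0.422 and 0.327 (log2 fold change 3.00, given as a description). Anxa10, the annexin of gastric pit cells, had 13.4 and 31.9 CPM and no UMI in Confetti, at least 240-fold, but did not pass in edgeR (adjusted p = 0.0664). None of the 4 gastric gland genes tested was called. Pgc (pepsinogen C) had the largest estimate among them, a log2 fold change of -4.93 ± 1.22 (adjusted p = 0.0517).

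Of the 15 brush border and absorption genes 2 were called higher and 2 lower. Apoa1, the lipoprotein gene of enterocytes and liver, had 25.4 and 19.6 CPM in 2w RFP and 0.543 and 0.785 in Confetti (5.09 ± 0.46, adjusted p = 0.0140). Krt20, a keratin of the intestinal surface, had 2 UMIs in Confetti and a pooled ratio of 20.7 (counting interval 5.64 to 172.6). Anpep (aminopeptidase N) fell by 3.02 ± 0.67 and Espn (espin), another brush border gene, by 2.56 ± 0.57 on the log2 scale (adjusted p = 0.0455 and 0.0457). Of 11 intestinal surface and secretory genes 3 were called higher, namely the tetraspanins Tspan8 (2.80 ± 0.48) and Tspan1 (2.30 ± 0.32), and Gpa33, the A33 antigen, which had 1 UMI in Confetti and a pooled ratio of 106 (18.9 to 4202). Of the lung identity genes 2 of 15 fell, Etv5 by 2.15 ± 0.43 and Abca3 by 1.43 ± 0.33. Nkx2-1 had an estimate of -0.81 ± 0.40 (adjusted p = 0.207), Sftpc -0.70 ± 0.45 (0.315), Foxa1 -1.57 ± 0.47 (0.0739) and Foxa2 -0.23 ± 0.28 (0.592), none past the threshold.

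Other abundant genes of the wider list did not pass, and alveolar cells of Confetti mice had them too. The tight junction genes Cldn3 and Cldn7 had mean levels of 824 and 452 CPM in 2w RFP, with log2 fold changes of 0.37 ± 0.31 and 0.78 ± 0.26 (adjusted p = 0.436 and 0.0950). The mucin gene Muc1 had 416 CPM and a log2 fold change of -0.27 ± 0.34 (adjusted p = 0.622). The epithelial transcription factors Klf5 and Klf4 had 0.21 ± 0.47 and 0.88 ± 0.48, and the peptidase gene Dpp4 -0.41 ± 0.37.

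**Figure D5:**
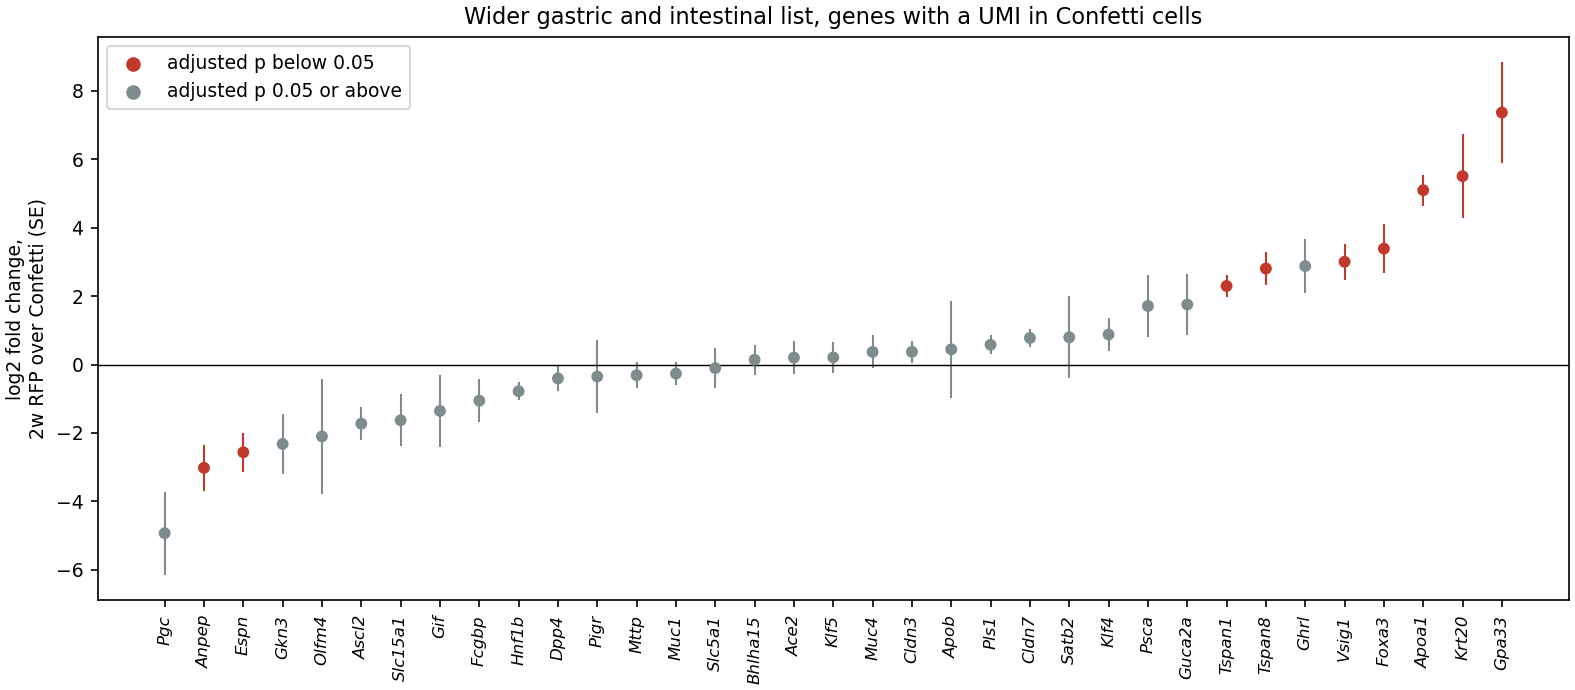
Log2 fold change of 2w RFP over Confetti with its standard error (vertical axis) for the 35 genes of the wider list that were tested and had a UMI in Confetti cells, in red where the edgeR adjusted p was below 0.05. Gpa33, Krt20 and Apoa1 stand at the upper end, and Anpep and Espn are the red points below 0.

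Against YFP cells of Red2Kras mice no gene of the wider list passed in the main edgeR fit, with the low-count filter and without a replicate block. In 2w RFP against 2w YFP 0 of 43 were called, beside 0.00726% of all genes, with 14 at an unadjusted p below 0.05 (16.4% of all genes) and 3 by DESeq2 (Anpep, Apoa1 and Tspan8, beside 3.42% of all genes). Apoa1 had 25.4 and 19.6 CPM in 2w RFP and 4.87 and 6.90 in 2w YFP, with a log2 fold change of 1.95 ± 0.38 (edgeR adjusted p = 0.176), and Vsig1, tested through 2w RFP alone, a log2 fold change of 2.69. In 4d RFP against 4d YFP 0 of 43 were called (0.00% of all genes). There 5 had an unadjusted p below 0.05 (5.69% of all) and DESeq2 called 0 (0.690% of all). Over both times 0 of 36 were called (0.00% of all genes), and 13 had an unadjusted p below 0.05 (21.5% of all). DESeq2 called 9 (9.83% of all), and edgeR with the replicate number as a block called 7 (6.97% of all).

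Some of these genes differed between cells with Ctse and cells with Gkn2, over all states. Ctse was almost confined to DATP-like cells while Gkn2 was shared between states, and no ratio within a state is given here. In 2w RFP cells with Ctse, the CPM of Anxa10 was 21.7 and 23.8 times that in cells without, that of Cdhr2, a brush border cadherin, 16.8 and 30.5 times, and that of Onecut2 15.3 and 9.68 times. With Gkn2 the ratios for Anxa10 were 1.80 and 0.74, and for Onecut2 1.98 and 0.26. Apoa1 was 14.8 and 6.85 times as high with Gkn2, and 9.64 and 0.51 with Ctse.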

How the data were processed

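Counts were the deposited gene by barcode UMI counts, which the authors made with Cell Ranger (3.1.0 in the submitters' processing notes, another release in the file headers) on GRCm38 from droplet libraries. The members and gene lists were chosen with earlier results of these data known. Barcodes with under 1000 genes, over 50000 UMIs or over 15% mitochondrial counts were left out, as in the study's methods. Cells were clustered in scanpy 1.11.5 (5000 variable genes without the members and gut lists, Louvain resolution 0.8), named from fixed markers and, for immune, endothelial, mesenchymal and ciliated cells, set aside. Doublets were kept, with removal by Scrublet score as an alternative. At most 12 barcodes were shared by 2 libraries.

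UMIs were summed per library over alveolar cells and tested with edgeR 4.0.16 (filterByExpr, TMM, glmQLFit, group only, all 10 libraries; the 8 Red2Kras libraries with time as a term for RFP against YFP over both times), with Benjamini-Hochberg adjustment over all genes. For a self-test, counts were simulated with 1 mean per gene over all libraries and the trended spread of the fit. Changes were put only into genes with at least 20 UMIs expected in a library of mean size. For 2w RFP against 2w YFP (13375 genes) the test recovered 84% of genes changed 4-fold and 100% of those changed 16-fold, with 6 false calls. These rates do not carry over to genes with fewer UMIs or to replicates of unlike make-up. DESeq2 1.42.0 was an alternative. Odds ratios had 0.5 added to each cell of the table, for pairs with at least 20 positive cells of each gene when all UMIs were counted. The same pairs were kept in the alternatives, where genes could have fewer positive cells. After thinning, for example, Vil1 had 4 in 2w RFP replicate 2. Intervals are exact binomial (95%) and, like the floor of 3 counts, cover counting error only. Named genes were all members, list genes past the adjusted p of 0.05 (at most 10 by size), the most abundant list genes, lung identity genes and the 5 (cells) or 3 (libraries) most like each member. Cdhr2 was named after its values were seen, and the summary counts of genes separated between libraries or highest in a state were defined after seeing values. Positions are from GENCODE M21. Strand-specific counting was not given in the sources used here for overlapping genes.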

Additional observations from a re-analysis of the deposited data

Results flagged for a closer look

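In cell types outside the alveolar comparison, 4 shares lay above Confetti. The limit was set after the values were seen: the lower end of the exact interval had to exceed the Confetti share, or the share that a count of 0 there allows. Of 144 shares compared, 4 did so, and 0 had intervals that did not overlap. In immune cells of 2w RFP, 3.55% (31 of 874) had Ctse against 0 of 142 in Confetti, and 6.86% (60 of 874) had Phgr1 against 3 of 142. These immune cells had medians of 11988 and 4436 UMIs, and after thinning the 2w RFP shares were 1.15% and 2.63%, against 0 of 142 and 1.41% in Confetti. The thinned Ctse interval, 0.551 to 2.10, no longer lay above the 2.11% that 0 of 142 allows. In endothelial cells of 2w RFP, 10.0% (3 of 30) had Phgr1 against 0 of 143. After thinning it was 6.90% (2 of 29, interval 0.846 to 22.8), no longer above the share that 0 of 128 thinned Confetti cells allows. In ciliated cells of 2w RFP, 19.4% (6 of 31) had Tff2 against 3 of 82 (9.68% and 2.50% after thinning), a larger share than among alveolar cells. The thinned Tff2 interval, 2.04 to 25.8, no longer lay above the thinned Confetti share of 2.50%. The cluster named ciliated also had the airway secretory genes Scgb1a1 and Scgb3a2 among its 10 leading genes, so it is not of ciliated signal alone. The source of these UMIs was not tested.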

How the results depend on the processing

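The counts of calls depended on the low-count filter and on single libraries. Where no share of all genes stands beside a count, a change of the list cannot be told from a change over all genes. For 2w RFP against Confetti (10 of the wider list) DESeq2 called 16, no low-count filter 23, and the sum over all barcodes 0, and leaving out 1 library gave 0 to 16: 0 without either Confetti library, 1 without 2w RFP replicate 2, and 16 without either 4d RFP library. For 2w RFP against 2w YFP (0) DESeq2 called 3, beside 3.42% of all genes, and no filter 13. For 4d RFP against 4d YFP (0) no filter called 4, and leaving out 1 library gave 0 to 1 (Onecut2, without 4d RFP replicate 1). Over both times (0) DESeq2 called 9 and no filter 18, and leaving out 1 library gave 0 to 9, with 9 without 4d RFP replicate 1. Members were called without a filter 5 times in 2w YFP against Confetti, 2 times in 4d YFP against Confetti and 4 times in 2w YFP against 4d YFP. DESeq2 called 2 in 2w YFP against Confetti, beside 0.712% of all genes. Hnf4a, Ctse and Tff1 had no UMI in Confetti, and Hnf4a and Tff1 none in 4d YFP. Any calls of these genes against those groups are a description and no test. The cause of the differences between settings was not tested.

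With a replicate block the wider list had 7 calls over both times, beside 6.97% of all genes. It had 12 in 2w RFP against Confetti, where the share of all genes is not given here. Same-numbered RFP and YFP libraries deviated together (r 0.49 at 4 days and 0.63 at 2 weeks, across genes), and the methods say that both colours were sorted from the lungs, but the sources used here do not tie a replicate number to a pool or to 1 of the 2 preparation days.

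The following 3 summaries were added after seeing the data. By CPM, 5 members separated 2w RFP from all other libraries, against 7 by share of cells and 8 without a minimum of 20 positive cells. Counted by share of cells, 3 members were highest in DATP-like cells in both libraries, against 6 by CPM. Thinning left 6 members separated by share and 17 pairs above an odds ratio of 1, against 19, and 23 of 46 single odds ratios moved beyond their interval. The 17 include Hnf4a with Vil1, Hnf4a with Lgals4 and Tff1 with Vil1, which had 0 cells with both in either library after thinning. Their ratios exceeded 1 only through the added 0.5, and some other pairs had 0 such cells in 1 library. The count of 17 is therefore no sign that joint detection held.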
